A study of Homo sapiens with 6 samples.

Results

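Genes of nucleotide excision repair and DNA mismatch repair were followed in DU 145 cells, an established human line of castration-resistant prostate cancer, 48 h after talazoparib or in a control group. The set held 31 genes, listed by symbol for their role in repair: 25 of excision repair and 6 of mismatch repair, of 24305 gene symbols in the table. Talazoparib inhibits PARP1 and PARP2, enzymes that mark DNA breaks with ADP-ribose chains, and traps them on DNA. RNA was sequenced from 3 talazoparib libraries and 3 control libraries. The control label reads "DMOS", taken here as the solvent DMSO, and both groups were sampled at 48 h. The series design presents DU 145 as deficient in homologous recombination repair, so both groups share that background. It names several talazoparib doses without saying which the sequenced cells received. Nothing says that libraries of a group came from separate cultures, so each p-value is set by how far these libraries vary, and that variation may be technical.

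Nucleotide excision repair removes bulky, helix-distorting DNA damage. In the global branch, XPC with RAD23B and CETN2, helped by the DDB1-DDB2 ubiquitin ligase on CUL4A or CUL4B, finds the lesion anywhere in the genome. In the transcription-coupled branch a stalled RNA polymerase recruits ERCC6, ERCC8 and UVSSA. Both branches then load the TFIIH complex, which opens the helix, XPA, which checks the damage, and the nucleases ERCC1-ERCC4 and ERCC5, which cut on either side of it. Mismatch repair corrects replication errors: MSH6 or MSH3, each in a dimer with a common partner, binds the mispair, MutL proteins such as PMS2 nick the new strand, and the exonuclease EXO1 removes it.

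The libraries held 39123997 to 39585727 counts and 18027 to 18344 genes with a count, so depth hardly differed. Epithelial markers summed to 1980 to 2130 library-scaled counts (CPM) with talazoparib and 1510 to 1780 CPM in controls, with 3 of 7 higher and none lower by the test used below. The leukocyte marker PTPRC and the fibroblast marker DCN had 0 counts in every library. The leukocyte list summed to 63.9 to 68.9 CPM with talazoparib and 26.0 to 28.6 CPM in controls, nearly all of it from CD68. The part of these shifts in the results was not tested. In bulk RNA, fewer cells of a kind and less RNA per cell cannot be told apart.

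Talazoparib libraries held less RNA for 15 of the 31 repair genes and more for 5. Genes were called by edgeR's quasi-likelihood test at an adjusted p under 0.05, with Benjamini-Hochberg adjustment over all 14452 genes tested. Of 25 excision repair genes, 10 fell, 5 rose and 10 missed the threshold. Their median log2 fold change was -0.34, or -0.19 without talazoparib replicate 2, and 3 rose without talazoparib replicate 1 or control replicate 2 or 3. Of 6 mismatch repair genes, 5 fell and none rose, with PMS2 short of the threshold, and the median was -0.66. Among all genes tested, 29.9% fell and 26.8% rose (56.7% in either direction), and the median was 0.0015. Falls of at least 1.5-fold were found in 8 excision and 5 mismatch genes, against 20.4% of all genes, and rises of that size in none of the 31, against 8.39% of all genes. The 3 talazoparib libraries lay below all 3 controls for 17 members (32.8% of all genes) and above them for 5 (31.6% of all genes). All 31 members passed the low-count filter, and the calls are for RNA only.

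**Figure D1:**
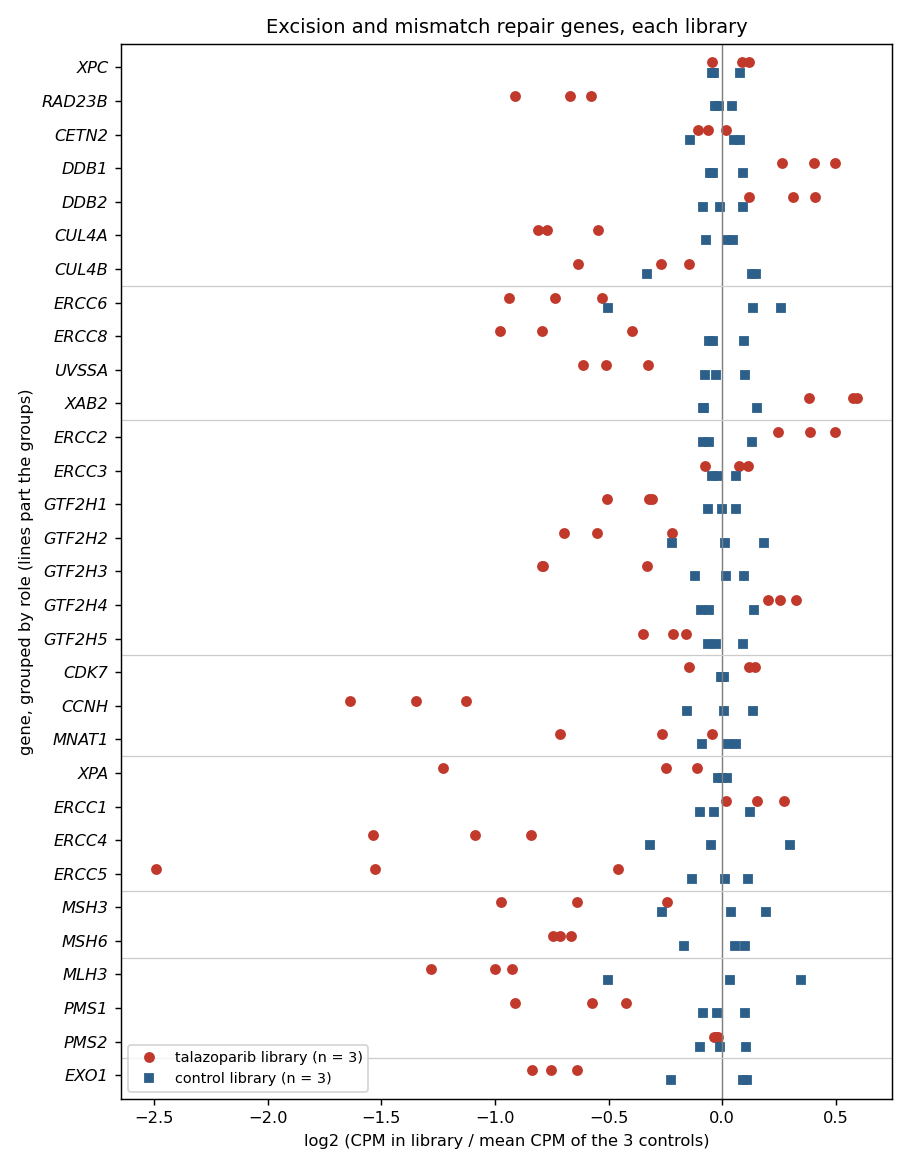
Each point is a library's CPM relative to the mean of the 3 controls on the log2 scale, for the 31 genes grouped by role from damage recognition at the top to EXO1 at the bottom; circles are talazoparib and squares control libraries. CCNH, ERCC4, RAD23B and MSH6 show talazoparib circles well to the left of the control squares, while XAB2, DDB1 and ERCC2 lie to the right.

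The calls followed the composition of the mRNA, and this frames every value below. In the 3 lowest deciles of transcript GC content (30.24% to 43.87%), which hold 21 of the 31 members, 64.9% of all genes fell and 2.50% rose; 14 of those members fell and none rose. In the 4 highest deciles (52.64% to 75.25%), 55.9% of all genes rose and 3.50% fell; of 6 members there 5 rose and none fell. Over the 31 members, log2 fold change and GC content had a Pearson correlation of 0.75 (Spearman 0.54), and log2 fold change and log2 length one of -0.48 (Spearman -0.53). The members share libraries, so these are descriptions. A second value is therefore given for each gene, from the same edgeR test after each library's smooth trend over GC content and length was taken out ("trend-removed"). This also takes out any part of the difference between groups that follows GC content or length. A trend-removed value is thus a change relative to genes of like GC content and length, and can differ in sign from the gene's own CPM. With it, 7 members were higher, 3 lower and 21 did not pass, against 22.0% higher and 22.2% lower among 13718 genes. The direction held in both fits for 2 lower members (14.8% of genes) and 1 higher member (11.4%), 1 member called higher became lower (2.06%), and none called lower became higher (1.87%). What produced the trend was not tested.

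The members with the deepest fall, CCNH, and the highest rise, XAB2, are shown by the first 150 coding bases of their longest protein-coding transcripts in GENCODE release 29, with G and C in capitals. The CCNH transcript used has 765 coding bases, and its stretch need not be the start of the full-length cyclin H protein. CCNH lies on chromosome 5 (87318416 to 87413019, minus strand) and XAB2 on chromosome 19 (7619525 to 7629565, minus strand), in GRCh38.
CCNH: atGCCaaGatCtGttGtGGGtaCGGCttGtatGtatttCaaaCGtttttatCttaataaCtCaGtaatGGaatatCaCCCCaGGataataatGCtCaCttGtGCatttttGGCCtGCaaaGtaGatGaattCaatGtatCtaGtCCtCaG
XAB2: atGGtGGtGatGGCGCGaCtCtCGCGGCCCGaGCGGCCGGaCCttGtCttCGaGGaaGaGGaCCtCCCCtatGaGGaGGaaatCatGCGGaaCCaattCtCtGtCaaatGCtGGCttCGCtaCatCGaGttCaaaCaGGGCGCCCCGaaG
G and C made up 37.3% of the CCNH stretch and 58.7% of the XAB2 stretch. Over the whole transcripts the shares were 35.2% and 61.6%. The first 150 coding bases do not rank the members as their fold changes do: among genes that fell, this stretch held 70.7% G and C in MSH6, 66.7% in ERCC4 and 65.3% in MSH3, more than in XAB2.

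**Figure D2:**
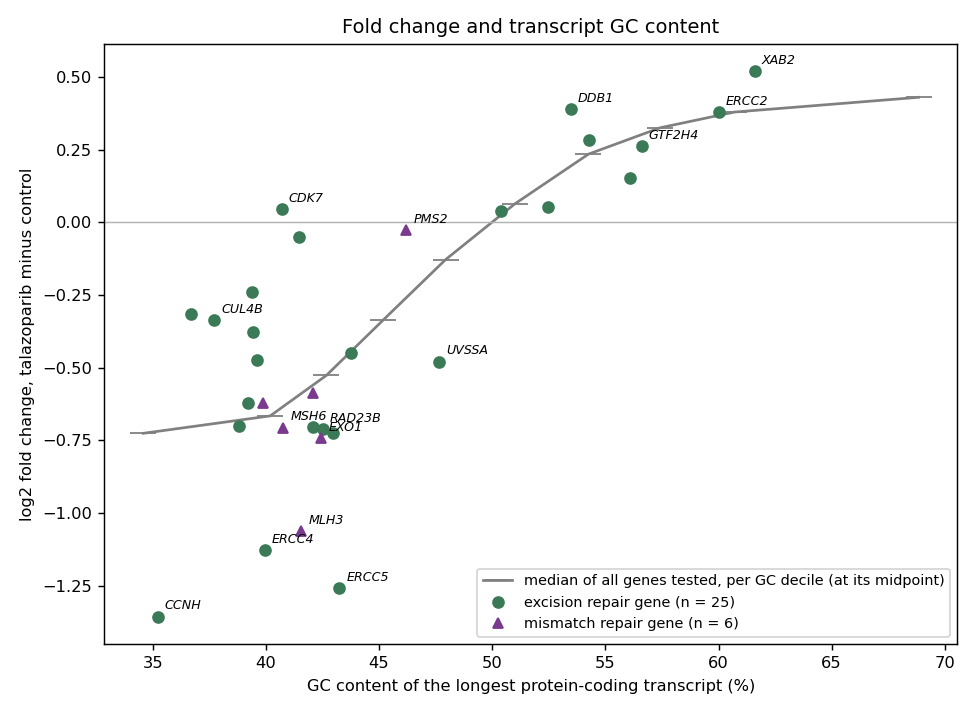
The x axis is the GC content (%) of the longest protein-coding transcript and the y axis the log2 fold change, talazoparib minus control; circles are the 25 excision genes, triangles the 6 mismatch genes, and the grey line joins the medians of all genes tested in each GC decile, from -0.73 to 0.43. Most members lie close to the line, with CCNH, ERCC4, ERCC5 and MLH3 well below it, and CDK7, CETN2, GTF2H5, MNAT1 and CUL4B above it.

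Among genes of global lesion recognition, RAD23B fell and DDB1 rose, while the other XPC partner CETN2 did not pass and the cullin gene CUL4A fell. RAD23B, which stabilises XPC, had 194, 164 and 206 CPM with talazoparib, against 305, 317 and 302 CPM in controls. Its log2 fold change was -0.71 ± 0.09 (SE; edgeR adjusted p = 4.33e-05), and trend-removed it was still lower, at -0.23 ± 0.05 (edgeR adjusted p = 0.00476). All 3 talazoparib libraries were below every control. XPC itself, the damage sensor, averaged 36.5 ± 2.14 CPM with talazoparib and 35.2 ± 1.75 CPM in controls (SD, n = 3 each), and the groups overlapped. An antisense gene shares 23.8% of the XPC exon bases. CETN2, a centrin in the same complex, also overlapped, at 29.1 ± 1.25 CPM with talazoparib and 30.2 ± 2.44 CPM in controls; trend-removed it was higher (0.30, edgeR adjusted p = 0.00975).

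DDB1, the adaptor that joins DDB2 and other receptors to the cullins, was the most abundant member. It had 739, 789 and 670 CPM with talazoparib, against 595, 543 and 539 CPM in controls, with no overlap. The rise of 0.39 ± 0.08 (edgeR adjusted p = 0.00153) remained trend-removed, at 0.22 ± 0.05 (edgeR adjusted p = 0.00418). DDB2, the ultraviolet damage receptor, had 29.6, 31.7 and 26.0 CPM with talazoparib, against 25.5, 22.5 and 23.7 CPM in controls. The lowest talazoparib library stood just above the highest control, and the rise (0.28, edgeR adjusted p = 0.0383) was lost without talazoparib replicate 1 (0.27) or 2 (0.22), without control replicate 2 (0.21) or 3 (0.24), and trend-removed (-0.0693).

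Of the cullin scaffolds, CUL4A fell and CUL4B did not pass. CUL4A had 99.1, 102 and 119 CPM with talazoparib, against 165, 179 and 176 CPM in controls, all below (-0.70 ± 0.08, edgeR adjusted p = 3.87e-05). Its trend-removed value was 0.0206. CUL4B, the close paralogue on the X chromosome, had 23.7, 18.4 and 25.8 CPM with talazoparib, against 22.7, 31.3 and 31.7 CPM in controls. Those groups overlapped through control replicate 1, and the call appeared without it (-0.51) or without talazoparib replicate 3 (-0.44); trend-removed, CUL4B was higher (0.44, edgeR adjusted p = 0.00127).

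RAD23B and DDB1 were the excision genes whose calls kept their direction in both fits, and EXO1 of mismatch repair was the other member to do so. Their promoters are shown because they can be set beside the composition of the mRNA: each is the 250 bases before the RefSeq start (GRCh38.p14), 5′ to 3′ on the gene's strand, with GGGCGG or its complement CCGCCC in capitals, the letters of the SP1 motif.
RAD23B, chr9:107283029-107283278, plus strand: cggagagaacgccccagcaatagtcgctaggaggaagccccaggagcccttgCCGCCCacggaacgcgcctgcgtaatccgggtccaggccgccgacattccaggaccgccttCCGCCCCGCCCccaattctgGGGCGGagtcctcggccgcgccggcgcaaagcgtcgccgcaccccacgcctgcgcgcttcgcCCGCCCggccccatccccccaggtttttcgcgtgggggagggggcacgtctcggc
DDB1, chr11:61333106-61333355, minus strand: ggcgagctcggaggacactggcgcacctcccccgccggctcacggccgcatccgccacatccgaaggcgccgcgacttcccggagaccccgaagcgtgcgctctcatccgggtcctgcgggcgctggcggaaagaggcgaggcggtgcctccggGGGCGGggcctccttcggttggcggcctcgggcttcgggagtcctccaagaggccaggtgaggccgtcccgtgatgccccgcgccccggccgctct
EXO1, chr1:241847954-241848203, plus strand: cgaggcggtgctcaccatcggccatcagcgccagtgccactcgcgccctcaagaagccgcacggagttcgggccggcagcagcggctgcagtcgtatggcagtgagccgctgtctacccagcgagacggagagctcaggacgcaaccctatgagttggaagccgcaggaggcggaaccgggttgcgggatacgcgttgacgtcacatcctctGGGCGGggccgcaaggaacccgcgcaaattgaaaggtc
These promoters held 73.2%, 75.2% and 65.6% G and C, although the transcripts of RAD23B, DDB1 and EXO1 held 42.5%, 53.5% and 42.4%. The SP1 letters, on either strand and overlaps counted apart, occurred 5 times for RAD23B, with 1 overlapping pair, and once each for the others. They were present before 20 of the 31 members and 42.6% of 35116 promoters in the table. The E2F spellings searched (TTTCCCGC, TTTGGCGC, TTTCGCGC and TTTGCCGC, either strand) were found before XPC, MSH3 and PMS2, and before 2.79% of all promoters. A match is a description of letters only.

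In transcription-coupled repair the polymerase-side sensors fell and the splicing-linked factor rose. ERCC6 (CSB), the remodeller that binds stalled polymerase, was near the bottom of the range with 2.42, 2.10 and 1.83 CPM with talazoparib, against 2.46, 4.19 and 3.84 CPM in controls. Control replicate 1 lay next to the talazoparib libraries. The fall of -0.72 ± 0.23 (edgeR adjusted p = 0.0174) was lost without talazoparib replicate 3 (-0.63) or control replicate 2 (-0.61) or 3 (-0.69), and the trend-removed value was 0.32.

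ERCC8 (CSA), the receptor of a DDB1 ligase, had 5.94, 5.24 and 7.81 CPM with talazoparib, against 10.0, 9.90 and 10.99 CPM in controls. UVSSA, which brings TFIIH to the stalled polymerase, had 14.7, 12.9 and 12.0 CPM with talazoparib, against 17.5, 19.7 and 18.1 CPM in controls. Neither gene's groups overlapped, and the falls were -0.70 and -0.48 (edgeR adjusted p = 0.00293 and 0.00481). A pseudogene on the same strand shares 28.3% of the ERCC8 exon bases. XAB2, an XPA-binding protein of the splicing machinery, had 147, 149 and 128 CPM with talazoparib, against 109, 92.8 and 93.2 CPM in controls, a rise of 0.52 ± 0.09 (edgeR adjusted p = 0.000445). Trend-removed, none of these genes passed: ERCC8 stood at 0.22, UVSSA at 0.0984 and XAB2 at 0.0653. Their deposited lengths ran from 2647 nt for XAB2 to 16948 nt for UVSSA, and ERCC6 had 30621 nt.

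The core of TFIIH was split: ERCC2 and GTF2H4 rose, GTF2H1 and GTF2H3 fell, and ERCC3, GTF2H2 and GTF2H5 did not pass. ERCC2 (XPD), the helicase that unwinds at the lesion, had 146, 157 and 132 CPM with talazoparib, against 122, 105 and 107 CPM in controls (0.38 ± 0.09, edgeR adjusted p = 0.00290; trend-removed 0.0524). ERCC3 (XPB), the translocase, had 61.8, 63.5 and 55.7 CPM with talazoparib, against 56.8, 58.0 and 61.2 CPM in controls. The helicase genes thus differed in call, ERCC2 with groups apart and ERCC3 with groups mixed (0.0401 ± 0.08).

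GTF2H3 (p34) had 30.5, 30.5 and 41.9 CPM with talazoparib, against 48.6, 56.4 and 53.4 CPM in controls. GTF2H1 (p62), which contacts XPC and UVSSA, had 22.8, 19.9 and 22.6 CPM with talazoparib, against 27.1, 28.2 and 29.5 CPM in controls. Both were lower in every talazoparib library, by -0.62 and -0.38 (edgeR adjusted p = 0.00129 and 0.00733). Trend-removed they did not pass, at -0.0525 for GTF2H3 and 0.19 for GTF2H1.

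GTF2H4 (p52), which anchors the translocase, changed sign between the fits. It had 88.0, 83.7 and 80.9 CPM with talazoparib, against 77.4, 67.6 and 65.9 CPM in controls, a rise of 0.26 (edgeR adjusted p = 0.0198). Trend-removed it was lower relative to genes of like GC content and length (-0.17, edgeR adjusted p = 0.0318). The rise was lost without talazoparib replicate 1 (0.23) or control replicate 2 (0.20) or 3 (0.18). GENCODE places 79.0% of its exon bases also in VARS2, a same-strand neighbour, and how shared reads were counted is not given in the sources used here.

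GTF2H5, the small stabilising subunit, averaged 12.2 ± 0.811 CPM with talazoparib and 14.4 ± 0.819 CPM in controls (SD, n = 3 each). Every talazoparib library was below every control (-0.24, edgeR adjusted p = 0.104). Relative to genes of like GC content and length, GTF2H5 passed as higher when the trend was removed (0.58, edgeR adjusted p = 0.00129). GTF2H2 (p44) averaged 2.77 ± 0.478 CPM with talazoparib and 3.86 ± 0.535 CPM in controls (-0.48, edgeR adjusted p = 0.0554), and passed without talazoparib replicate 1 (-0.62) or control replicate 2 (-0.61). It has near-identical copies on chromosome 5, so its reads are uncertain. The copy GTF2H2C had 271, 255 and 261 counts with talazoparib, against 398, 538 and 521 counts in controls.

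The kinase module of TFIIH, which also phosphorylates RNA polymerase II, held the deepest fall with a tight error. CCNH, the cyclin H subunit, had 6.25, 5.37 and 4.39 CPM with talazoparib, against 12.3, 13.7 and 15.0 CPM in controls. The highest talazoparib library was far below the lowest control (-1.36 ± 0.16, edgeR adjusted p = 3.21e-05). Trend-removed, the value was -0.54 ± 0.20 and did not pass (edgeR adjusted p = 0.0553). RASA1, on the opposite strand, shares 12.7% of the CCNH exon bases and was itself lower in counts, with 371, 231 and 311 in talazoparib libraries, against 571, 1014 and 886 in controls.

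CDK7, the catalytic subunit, had 18.5, 15.1 and 18.1 CPM with talazoparib, against 16.7, 16.6 and 16.8 CPM in controls. MNAT1, the assembly factor, had 16.6, 12.2 and 19.4 CPM with talazoparib, against 18.8, 20.8 and 20.3 CPM in controls. Neither passed (0.0459 and -0.32; edgeR adjusted p = 0.755 and 0.0956), and the libraries overlapped. MNAT1 passed as lower without talazoparib replicate 3 (-0.47). Trend-removed, CDK7 (0.44) and MNAT1 (0.28) were higher (edgeR adjusted p = 0.00168 and 0.0137), opposite in sign to CCNH.

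**Figure D3:**
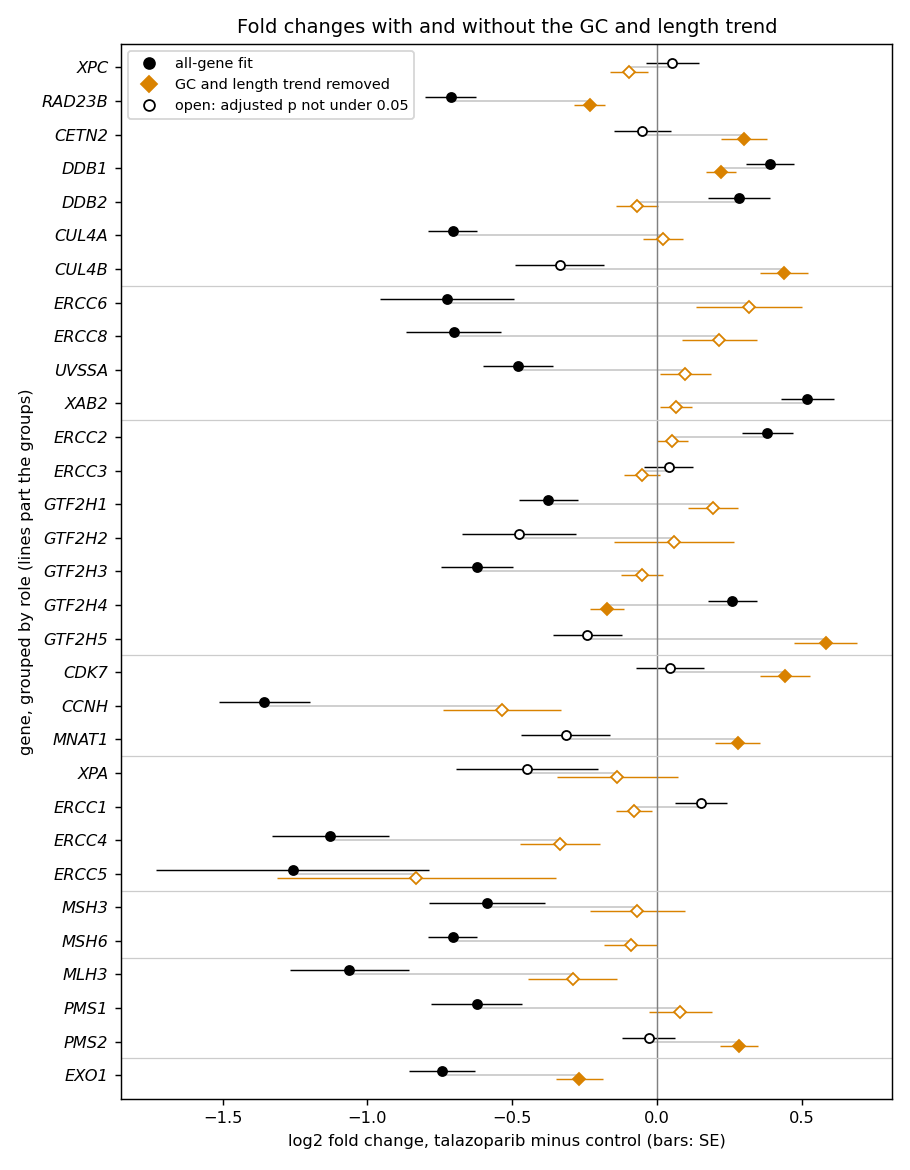
Log2 fold changes (talazoparib minus control, bars SE) of the 31 genes by role, from the all-gene fit (circles) and with the GC and length trend removed (diamonds); open symbols have an adjusted p of 0.05 or more. RAD23B, DDB1 and EXO1 are filled on the same side of zero in both fits, GTF2H4 is filled on opposite sides, and GTF2H5, CDK7 and CUL4B are filled only for the diamonds.

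Of the genes that verify and cut, ERCC4 and ERCC5 were low and fell, while XPA and ERCC1 did not pass. ERCC4 (XPF) had 6.79, 4.20 and 5.73 CPM with talazoparib, against 9.77, 15.0 and 11.8 CPM in controls (-1.13 ± 0.20, edgeR adjusted p = 0.000615). ERCC1, with which it forms the nuclease, had 83.9, 91.1 and 76.3 CPM with talazoparib, against 82.1, 70.5 and 73.6 CPM in controls (0.15 ± 0.09, edgeR adjusted p = 0.172). ERCC4 groups stood apart and ERCC1 groups overlapped. Genes on the opposite strand share 25.7% of the ERCC4 and 28.6% of the ERCC1 exon bases, and the strand setting of the counts is not given. Trend-removed, ERCC4 was at -0.34 (edgeR adjusted p = 0.0686) and ERCC1 at -0.0789.

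ERCC5 (XPG) had only 4, 16 and 8 counts with talazoparib, against 21, 26 and 24 counts in controls. The groups did not overlap, and the fall (-1.26 ± 0.47, edgeR adjusted p = 0.0369) was lost without any of control replicates 1 to 3 (-1.36 to -1.23) or talazoparib replicates 1 (-0.90) and 3 (-1.14). The read-through gene BIVM-ERCC5 shares 63.2% of its exon bases and has no row in the table analysed here, so the level of ERCC5 is uncertain. XPA, the damage verifier, had 3.88, 1.97 and 4.26 CPM with talazoparib, against 4.54, 4.60 and 4.67 CPM in controls. Talazoparib replicate 2 lay far below the other two, and the difference (-0.45) passed only without talazoparib replicate 3 (-0.65).

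Mismatch recognition genes were lower, most clearly MSH6. MSH6, which with its partner binds base mispairs and small loops, had 77.1, 79.7 and 75.5 CPM with talazoparib, against 112, 131 and 135 CPM in controls. Its groups were well apart (-0.71 ± 0.09, edgeR adjusted p = 3.96e-05). FBXO11, on the opposite strand, shares 16.2% of the MSH6 exon bases. It had 1769, 1383 and 1991 counts with talazoparib, against 2233, 2608 and 2636 counts in controls. MSH3, which serves larger loops, had 5.91, 3.56 and 4.49 CPM with talazoparib, against 5.81, 7.18 and 7.99 CPM in controls. Talazoparib replicate 1 overlapped control replicate 1, and the fall (-0.59, edgeR adjusted p = 0.0236) was lost without talazoparib replicate 2 (-0.43) or 3 (-0.56) or control replicate 2 (-0.60) or 3 (-0.52). Trend-removed, neither passed (-0.0910 for MSH6 and -0.0677 for MSH3).

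The MutL genes differed among themselves. MLH3, best known from meiosis, had 5.10, 3.99 and 4.84 CPM with talazoparib, against 6.85, 9.93 and 12.3 CPM in controls. PMS1, a MutL gene of less certain role in repair, had 6.35, 5.02 and 7.05 CPM with talazoparib, against 8.91, 10.2 and 9.32 CPM in controls. Both were lower in every talazoparib library (-1.06 and -0.62; edgeR adjusted p = 0.00100 and 0.00475). PMS2, the endonuclease of the main MutL dimer, had 32.9, 32.5 and 32.7 CPM with talazoparib, against 31.1, 33.1 and 35.8 CPM in controls, with a change of -0.0278 ± 0.09 (edgeR adjusted p = 0.811). Trend-removed, PMS2 was higher (0.28, edgeR adjusted p = 0.00393) and the others did not pass (-0.29 and 0.0798). PMS2 has pseudogene copies of near-identical sequence, so its count is uncertain.

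EXO1, the exonuclease that removes the mismatched strand and is also used in resection of breaks, was called lower in both fits. It had 22.1, 19.3 and 20.4 CPM with talazoparib, against 29.4, 37.1 and 36.7 CPM in controls, with no overlap. The log2 fold change was -0.74 ± 0.11 (edgeR adjusted p = 0.000195), and -0.27 ± 0.08 trend-removed (edgeR adjusted p = 0.0189). With GC content alone removed it did not pass (-0.17).

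Control replicate 1 stood nearer to the talazoparib libraries than the other controls did. It was the lowest control for 13 of the 15 members that fell and for 21 of all 31, against 41.7% of all genes tested. Relative to the other controls it was lower by 0.20 (log2, median) in the lowest GC decile and higher by 0.16 in the highest. Without it, 10 excision genes fell and 5 rose, and 5 mismatch genes fell, with medians of -0.44 and -0.78.

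Levels per unit of length differed far more between members than between groups. The deposited lengths behind them can lie far from those of the longest protein-coding transcripts, so the order of genes depends on them. They were 30621 against 8008 nt for ERCC6 and 9920 against 2017 nt for ERCC8, but 2708 against 4336 nt for GTF2H2. In deposited FPKM (counts scaled by gene length and library total), DDB1 led with 168 ± 9.79 FPKM with talazoparib and 135 ± 4.40 FPKM in controls (SD, n = 3 each). ERCC6 and ERCC5 were lowest, at 0.0672 and 0.0608 FPKM with talazoparib and 0.118 and 0.155 FPKM in controls. With talazoparib RAD23B stood at 42.2 ± 5.81 FPKM, below XAB2 (51.9 ± 3.03 FPKM) and GTF2H4 (47.9 ± 1.72 FPKM). It came next after DDB1 in controls, at 72.8 ± 3.47 FPKM. With talazoparib, the SDs of XAB2 and GTF2H4 overlapped, and those of GTF2H4 and RAD23B. Lower in the order of the controls, each gene from CCNH (2.08 FPKM) through GTF2H5, ERCC4, XPA, PMS1 and MSH3 to GTF2H2 (1.46 FPKM) lay within the SDs of its neighbour.

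**Figure D4:**
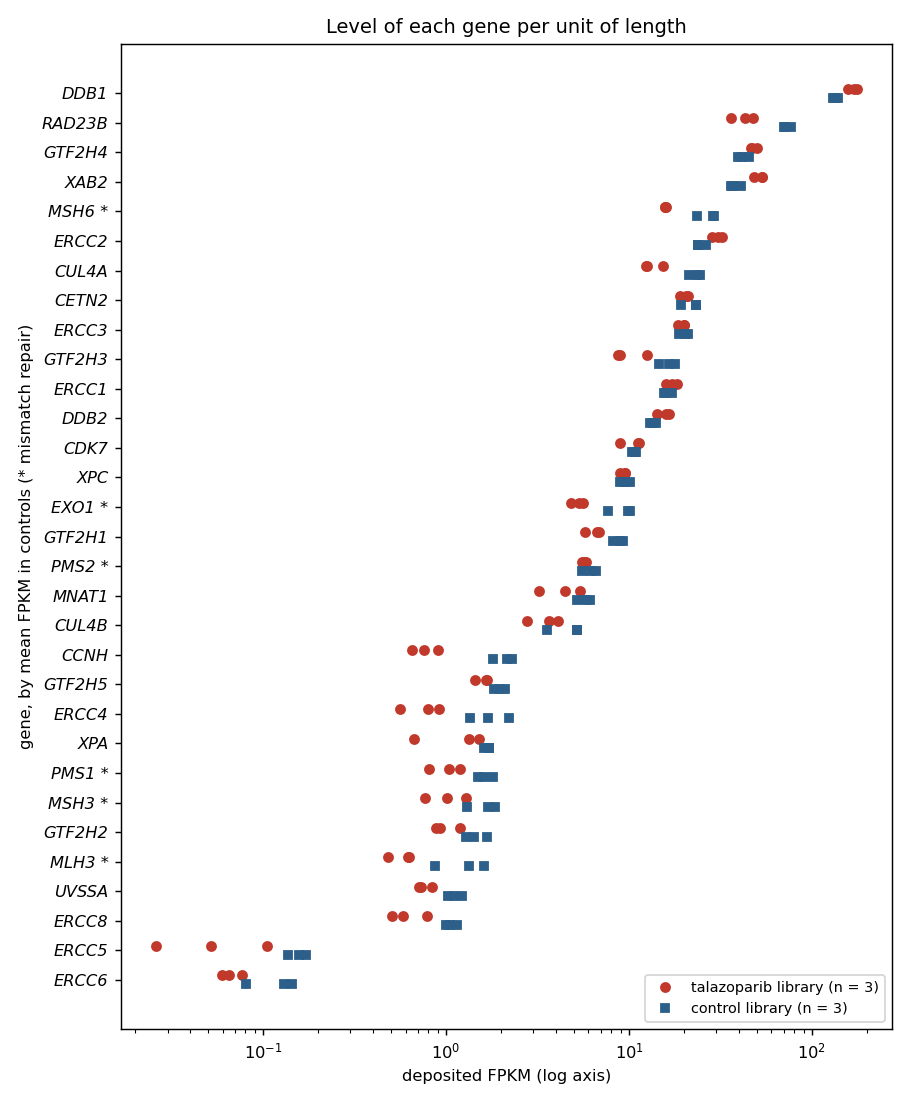
Deposited FPKM (log axis) in each library for the 31 genes, ordered by their mean in controls, with circles for talazoparib and squares for control libraries and an asterisk for mismatch repair genes. DDB1 lies above 100 FPKM in every library, and ERCC5 and ERCC6 lie below 1.

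Subunits of TFIIH and its kinase module were spread widely at the RNA level. The most abundant was GTF2H4, with 46.7 to 49.9 FPKM in talazoparib libraries and 39.7 to 45.1 FPKM in controls. By deposited length, the least abundant was CCNH with talazoparib (0.652 to 0.901 FPKM) and GTF2H2 in controls (1.28 to 1.67 FPKM). Those lengths were 6729 nt for CCNH and 2708 nt for GTF2H2. Their longest protein-coding transcripts have 2391 and 4336 nt, so which subunit is lowest depends on the lengths used. The highest subunit exceeded the lowest 55.3-fold to 72.4-fold with talazoparib and 23.8-fold to 32.3-fold in controls. These spreads are uncertain, because VARS2 shares 79.0% of the GTF2H4 exon bases and GTF2H2 has near-identical copies.

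Ratios of partner genes within a library, chosen after the values were seen and given without a test, were apart between groups for 12 of 15 pairs and overlapped for 3. The share over other gene pairs was not computed. Among all single genes tested, talazoparib libraries lay apart and below for 32.8% and apart and above for 31.6%, so separation was common. The FPKM ratio of CCNH to CDK7 was 0.0806, 0.0848 and 0.0576 with talazoparib, against 0.175, 0.197 and 0.213 in controls. The ratio of ERCC1 to ERCC4 was 18.6, 32.7 and 20.1 with talazoparib, against 12.7, 7.08 and 9.43 in controls. In both pairs the groups were apart. CUL4A stood to DDB1 as 0.0805 ± 0.0145 with talazoparib and 0.171 ± 0.0161 in controls (SD, n = 3 each). RAD23B stood to XPC as 4.54 ± 0.768 with talazoparib and 7.68 ± 0.518 in controls. The ratio of MSH6 to MSH3 overlapped between groups, at 16.2 ± 4.37 with talazoparib and 16.9 ± 1.12 in controls. That of PMS2 to MLH3 was 9.98 ± 1.29 with talazoparib and 5.04 ± 1.19 in controls, with groups apart.

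**Figure D5:**
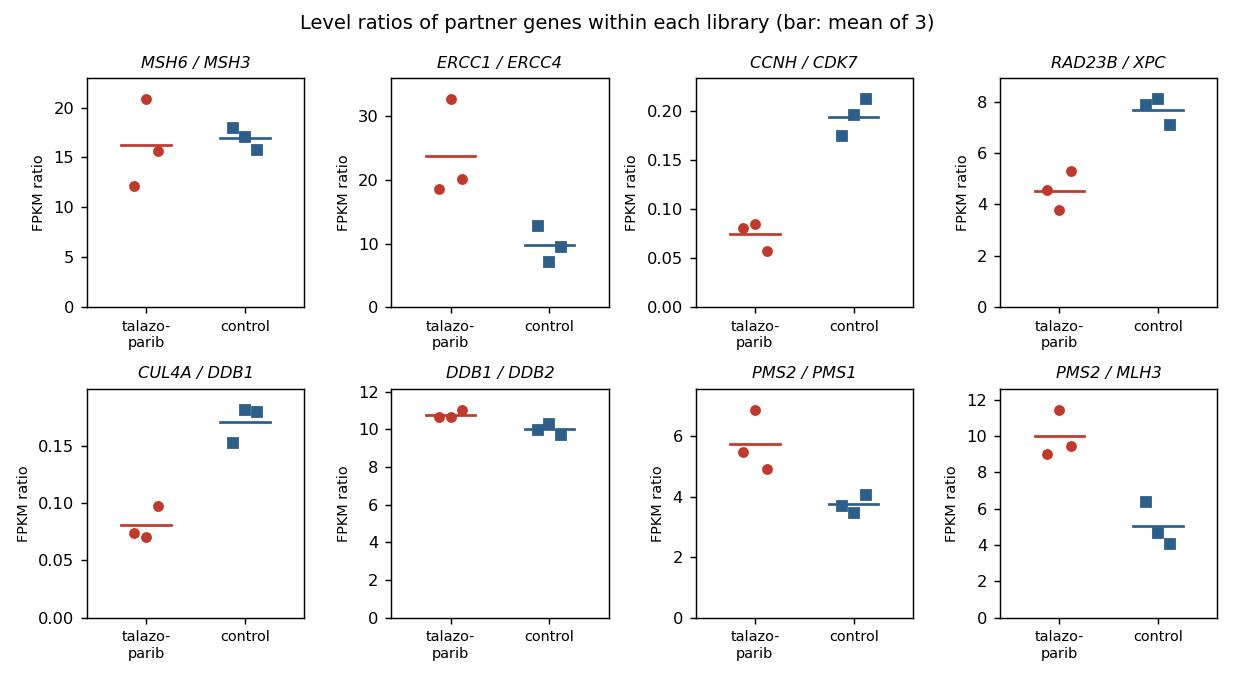
FPKM ratio of 8 pairs of partner genes in each library, talazoparib left of control, with bars at the mean of 3 libraries and every y axis starting at 0. The groups are apart for 7 pairs and overlap for MSH6 over MSH3.

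Other genes of these pathways, from lists chosen for their role, also moved both ways. Of 21 genes that fill and seal the gap, 8 rose and 9 fell (median 0.0015), against 26.8% rising and 29.9% falling among all genes tested. Trend-removed, 5 were higher and 4 lower, against 22.0% and 22.2% of genes. POLE2, a subunit of DNA polymerase epsilon, averaged 25.8 CPM with talazoparib and 52.7 CPM in controls, and the clamp loader gene RFC4 averaged 43.7 CPM with talazoparib and 67.5 CPM in controls. They fell by 1.03 and 0.63 on the log2 scale (edgeR adjusted p = 1.62e-05 and 0.000155), and trend-removed they were still lower (-0.75 and -0.55). POLD4, the small subunit of polymerase delta, averaged 61.7 CPM with talazoparib and 34.3 CPM in controls, and was higher in both fits (0.85, and 0.40 trend-removed).

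Of 11 further excision factors 2 rose and 5 fell, and of 9 subunits of the COP9 signalosome, which removes NEDD8 from the cullins, 3 rose and 4 fell. Among all genes tested, 26.8% rose and 29.9% fell. Trend-removed, 1 of these excision factors was higher and 5 lower, and 1 COP9 subunit was higher and 3 lower. Over all genes in that fit, 22.0% were higher and 22.2% lower. USP7, a deubiquitinase brought in with UVSSA, averaged 87.7 CPM with talazoparib and 157 CPM in controls (-0.84, and -0.43 trend-removed). POLR2B, the second largest subunit of RNA polymerase II, averaged 57.1 CPM with talazoparib and 124 CPM in controls (-1.11, and -0.61 trend-removed), whereas POLR2A, the largest, averaged 412 CPM with talazoparib and 414 CPM in controls. The acetyltransferase EP300 was lower in both fits (-0.87 and -0.72), as were the COP9 genes COPS5 (-0.48 and -0.66) and COPS4 (-0.72 and -0.58), while COPS8 was lower only without trend removal (-0.56 and -0.0321). The meiotic homologues MSH4 and MSH5 had at most 4 counts in a library and were not tested.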

How the data were processed

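RNA of DU 145 cells was sequenced in 3 talazoparib and 3 control libraries, grouped by their titles. Per the submitters' processing notes, the tools were HTSeq, Cufflinks, HISAT2 and Trimmomatic, and the build was GRCh38. No tool version, annotation or strand setting is given in the sources used here. Whole-number read counts were deposited for 24305 gene symbols. The authors also deposited FPKM values, which equalled count divided by gene length and column total: the lengths they imply were whole within 0.01 nt for 99.95% of 21065 genes with a count, and are the lengths used here.

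The count test was edgeR 4.0.16 under R 4.3.3 (filterByExpr with a minimum count of 10, TMM scaling, robust quasi-likelihood test, Benjamini-Hochberg adjustment over 14452 genes, threshold 0.05). CPM uses TMM-scaled library sizes; SE is the absolute log2 fold change over the square root of F. Trend-removed fits used an offset of natural splines with 5 degrees of freedom over GC content (GENCODE release 29, longest protein-coding transcript) and log2 length, available for 13718 genes (94.9%), and for all 31 members. The fits were tested on simulated data. The simulated GC and length trend came from the same splines that the fit removes. That run therefore cannot show whether a real change that follows composition is kept. Promoters came from RefSeq (GRCh38.p14), matching 31 of 31 members. Alternatives were DESeq2 1.42.0, limma 3.58.1 (voom, and log2 of FPKM plus 1 or 0.1), other scalings, no filter, a 1.2-fold threshold, the replicate number as a block, and leaving out each library.

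The rule for members lists gene symbols and uses no measured value, but members, lists and tests were chosen with earlier results of these data known. Per-library values are given for members called at 1.5-fold or more, those whose call differs between fits, and examples of the smallest changes; 3 genes per further list were those with the smallest adjusted p, and POLR2A was named after its value was seen.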

Additional observations from a re-analysis of the deposited data

How the results depend on the processing

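Scaling, tool and filter changed few calls: of 31 members, 31 kept their side of the threshold with DESeq2 size factors, upper-quartile scaling or limma-voom, 30 with DESeq2, without a filter or with the replicate block, 29 on either FPKM scale and 28 with total counts. XPC, ERCC3 and CDK7, never called there, turned negative with total counts (-0.0222, -0.0359 and -0.0265) and on both FPKM scales. The excision median was -0.41 with total counts and -0.20 or -0.40 on log2 of FPKM plus 1 or 0.1; the mismatch median on the first FPKM scale was -0.45. Against a fold of 1.2, 1 excision gene was higher and 2043 genes overall. Leaving out libraries in turn, excision genes called higher numbered 3 to 5 (3 without talazoparib replicate 1 or control replicate 2 or 3) and the excision median ran from -0.44 (without control replicate 1) to -0.19 (without talazoparib replicate 2). Same-numbered libraries did not deviate together over all genes (correlations of -0.094, -0.173 and 0.004). With 3 libraries per group, each with its own composition trend, this cannot show whether the numbers pair libraries. The replicate block left 4 excision genes higher, 10 lower and 5 mismatch genes lower, losing DDB2 (0.28). Over all 14452 genes, that fit called 3419 higher and 4161 lower. Counts under 30 in every library limit ERCC5.

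Removing the composition trend changed most results, and beyond its own construction the cause was not tested. With GC content and length removed, 3012 of 13718 genes were higher and 3049 lower. Of the members, 6 excision genes were higher and 2 lower, and 1 mismatch gene was higher and 1 lower. The medians were 0.0524 (excision) and -0.0794 (mismatch). The log2 fold changes that changed sign were, for members called with or without the trend, CETN2 0.30, DDB2 -0.0693, CUL4A 0.0206, CUL4B 0.44, ERCC6 0.32, ERCC8 0.22, UVSSA 0.0984, GTF2H1 0.19, GTF2H4 -0.17, GTF2H5 0.58, MNAT1 0.28, PMS1 0.0798 and PMS2 0.28, and, for members called in neither, XPC -0.0954, ERCC3 -0.0518, GTF2H2 0.0582 and ERCC1 -0.0789. With GC content alone, 3060 of 13718 genes were higher and 3038 lower. Of the members, 7 excision genes were higher and 4 lower, and 1 mismatch gene was higher and 1 lower. The medians were 0.0152 and -0.014, and the sign changed for CETN2 0.58, CUL4B 0.42, ERCC8 0.0152, GTF2H1 0.34, GTF2H3 0.096, GTF2H4 -0.0265, GTF2H5 0.48, MNAT1 0.43, MSH3 0.0012, PMS1 0.0701 and PMS2 0.23, and among those called in neither for XPC -0.0742, GTF2H2 0.24 and ERCC1 -0.12. With length alone the excision median was -0.16, and the sign changed for ERCC6 0.20 and UVSSA 0.27, and among those called in neither for ERCC3 -0.0097, GTF2H5 0.17, CDK7 -0.19 and PMS2 0.21. With the replicate block and the trend removed together, 2565 genes were higher and 2575 lower. Of the members, 6 excision genes were higher and 1 lower, and 1 mismatch gene was higher and 1 lower. The medians were 0.0483 and -0.0918, and the sign changed for CETN2 0.30, DDB2 -0.0713, CUL4A 0.0198, CUL4B 0.44, ERCC6 0.32, ERCC8 0.21, UVSSA 0.0977, GTF2H1 0.19, GTF2H4 -0.17, GTF2H5 0.58, MNAT1 0.28, PMS1 0.079 and PMS2 0.28, and among those called in neither for XPC -0.0947, ERCC3 -0.0523, GTF2H2 0.0483 and ERCC1 -0.0785. Without control replicate 1, chosen after seeing the data and with the trend removed, 1 excision gene was lower, 1 mismatch gene was higher and 2 were lower, and the medians were 0.09 and -0.11. The number of excision genes called higher in that fit is not given here, so these counts are partial.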
